A study of Mus musculus with 8 samples.

Results

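Klf2, Klf4, Klf6, S1pr1, Txnip and Btg1 are 6 of the 32287 gene rows of a single-cell RNA sequencing data set of blood and heart leukocytes from mice. They were grouped by symbol, as genes known for leukocyte circulation and for the resting state of cells, and each matched 1 gene row. Which measured values they were chosen by is not recorded. They were proposed with earlier results of the same data known. Their levels across organs and cell classes are therefore treated as used and given as a description, with no test. The exception is a split of heart macrophages, whose tests are not independent of that choice. Stroke marrow recipients and control marrow recipients were compared, with 2 mice in each group. All recipients carried Mx1Cre with both c-Myb alleles floxed, a strain in which interferon-driven Cre can delete c-Myb and so deplete the blood-forming cells of the host, and all received donor bone marrow. The donors had undergone stroke, or were controls. CD45+CD11b+ cells, a gate for myeloid leukocytes, were sorted from the heart and the blood of each recipient, marked by organ with hashtag antibodies and pooled into 1 library per mouse, per the labels' protocols. Heart and blood of a mouse therefore shared a library, whereas donor groups never did. Cells of host and donor origin were not told apart here, and heart macrophages are a population in which host cells can persist. Barcode suffixes 2 and 4 were read as stroke replicates 1 and 2 and suffixes 1 and 3 as control replicates 1 and 2, from the sample numbers in the labels. No file states that match, and every comparison of donor groups rests on it.

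As background, KLF2, KLF4 and KLF6 are zinc finger transcription factors of the Krüppel-like family. In mouse lymphocytes KLF2 maintains quiescence and drives S1pr1, and in myeloid cells KLF2 restrains inflammatory activation, and KLF4 is needed in mice to form the nonclassical monocytes that patrol vessels. KLF6 is an immediate early gene in many cells and promotes inflammatory programmes in macrophages. S1PR1 senses sphingosine-1-phosphate, a lipid abundant in blood and scarce in tissue, and draws lymphocytes from tissue into the circulation. TXNIP is an arrestin-domain protein that binds thioredoxin and lowers glucose uptake, and its gene follows glucose through the MondoA and MLX factors. BTG1 recruits the CCR4-NOT deadenylase, promotes turnover of messenger RNA, and helps to keep lymphocytes quiescent.

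The libraries held 3303 and 3084 barcodes with 15771782 and 16482961 gene UMIs (unique molecular identifiers, each standing for 1 captured RNA molecule) in stroke replicates 1 and 2, and 2020 and 2723 barcodes with 10059365 and 12509034 UMIs in control replicates 1 and 2. Of 11130 barcodes, 14 barcode sequences occurred in more than 1 library. Barcodes were assigned to organs from their hashtags and to classes from marker genes, so class names below stand for macrophage-like, monocyte-like and so on. Besides myeloid classes, B cell-like and NK cell-like barcodes were also found among the sorted cells. Stroke replicate 2 stood apart in blood: 976 of its 1299 blood barcodes (75.1%) were B cells, and only 46 were neutrophils and 69 classical monocytes. Xist counted 5511 to 10901 UMIs in 3 mice and 1 UMI in control replicate 1, where Ddx3y, a Y-linked gene, counted 506 UMIs, so sex was not balanced between the donor groups. Levels are in CPM, the UMIs of a gene over the summed cells of 1 class, organ and mouse scaled to a common library size, with edgeR's TMM factors set over all 52 sums. In such sums, fewer cells with a transcript and less transcript per cell cannot be told apart.

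The genes lie, on GRCm38, at chr8:72319033-72321656 on the plus strand (Klf2), chr4:55527143-55532466 on the minus strand (Klf4), chr13:5861482-5870394 on the plus strand (Klf6), chr3:115710433-115715072 on the minus strand (S1pr1), chr3:96557957-96561883 on the plus strand (Txnip) and chr10:96617006-96622809 on the plus strand (Btg1). All are protein coding. The 250 bases upstream of the RefSeq start (build GRCm38.p6, plus strand) are printed for Klf2, Txnip and Btg1. Txnip and Btg1 were picked because they stood on opposite sides of the organ difference described below while both windows hold a forkhead motif. Klf2 and Klf4 share a list drawn up as upstream genes, and the MEF2 core was found in the window of Klf2 but not of Klf4. Capitals mark the MEF2 core (CTA, then 4 free bases, then TAG) in Klf2 (chr8:72318812-72319061) and the forkhead motif GTAAACA, as such in Txnip (chr3:96557707-96557956) and on the other strand in Btg1 (chr10:96616751-96617000).
Klf2: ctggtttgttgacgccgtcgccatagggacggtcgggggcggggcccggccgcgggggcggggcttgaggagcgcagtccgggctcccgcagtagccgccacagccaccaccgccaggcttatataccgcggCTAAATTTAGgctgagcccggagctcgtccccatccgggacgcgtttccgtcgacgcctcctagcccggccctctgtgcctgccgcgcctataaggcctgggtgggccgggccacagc
Txnip: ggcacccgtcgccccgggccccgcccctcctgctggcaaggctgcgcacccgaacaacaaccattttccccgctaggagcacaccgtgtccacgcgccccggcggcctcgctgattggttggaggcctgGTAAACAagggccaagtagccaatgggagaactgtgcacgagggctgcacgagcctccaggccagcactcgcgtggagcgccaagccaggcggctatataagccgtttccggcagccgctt
Btg1: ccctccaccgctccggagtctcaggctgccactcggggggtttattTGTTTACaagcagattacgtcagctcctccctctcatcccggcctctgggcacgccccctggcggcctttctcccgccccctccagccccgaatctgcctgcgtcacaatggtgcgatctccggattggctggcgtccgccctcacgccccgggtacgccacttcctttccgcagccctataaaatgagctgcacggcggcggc
Motifs were searched on both strands in windows of 300 bases, and 5 of the 6 genes had a window. GTAAACA was held by 3.65% of all 32851 windows, and among the 5 by those of Txnip and Btg1. The MEF2 core was held by 3.69% of all windows and by that of Klf2. The E-box CACGTG was held by 7.15% of all windows and by those of Klf4 and Klf6, and the AP-1 motif TGANTCA by 7.81% of all windows and by none of the 5. The KLF core CACCC, which is short, was held by 57.5% of all windows and by those of Klf2 and Txnip. These matches describe letters only.

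Each gene was read in 13 groups, 7 classes in the heart and 6 in the blood, every one with at least 20 barcodes in each mouse. Klf2 was highest in heart neutrophils (2152 ± 418 CPM, SD, n = 4 here and below) and heart macrophages (1590 ± 290 CPM), and lowest in dendritic cells (493 ± 60.5 CPM in the heart and 378 ± 131 CPM in blood). The order of these first groups depends on the scaling: in CPM of the plain total Klf2 stood at 1485 ± 152 in heart neutrophils and 1608 ± 271 in heart macrophages. The groups between ran, in TMM-scaled levels, from 1151 ± 339 CPM in blood neutrophils to 641 ± 52.4 CPM in blood classical monocytes. Of the 12 pairs of neighbours in this order, 11 overlapped over the 4 mice, the exception being blood classical monocytes and heart dendritic cells.

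Among the 13 groups Klf4 was mainly a gene of mononuclear phagocytes. It was highest in heart nonclassical monocytes (515 ± 70.0 CPM), followed by heart macrophages (437 ± 53.8 CPM), heart classical monocytes (350.0 ± 51.3 CPM) and blood nonclassical monocytes (307 ± 30.2 CPM). It fell off through dendritic cells (206 ± 59.8 CPM in the heart and 147 ± 42.8 CPM in blood) to blood B cells at 16.4 ± 6.91 CPM, blood neutrophils at 3.81 ± 4.20 CPM and blood NK cells at 1.28 ± 1.48 CPM. Here too 11 of 12 neighbouring pairs overlapped, and only blood B cells and blood neutrophils did not. Endothelial-like barcodes of the heart, outside these groups, also held Klf4. They had 342 and 242 CPM of the plain total in stroke replicates 1 and 2 and 260 CPM in control replicate 2.

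Klf6 was highest in heart neutrophils (898 ± 162 CPM) and heart macrophages (722 ± 65.4 CPM), then in blood neutrophils (532 ± 173 CPM). In CPM of the plain total its first places were turned, with 624 ± 88.1 in heart neutrophils and 731 ± 59.9 in heart macrophages. Heart NK cells, dendritic cells, classical monocytes and nonclassical monocytes lay together between 314 and 324 CPM. The next group, blood nonclassical monocytes at 190.0 ± 33.7 CPM, was the only one that did not overlap its neighbour. Blood NK cells were lowest, at 124 ± 7.13 CPM.

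Btg1 was highest in neutrophils, at 2984 ± 847 CPM in the heart and 2315 ± 334 CPM in blood, and heart nonclassical monocytes followed at 1442 ± 265 CPM. Those 3 groups stood clear of the rest, since neither blood neutrophils nor heart nonclassical monocytes overlapped the next group. The lowest levels were in heart macrophages (275 ± 58.1 CPM) and blood dendritic cells (174 ± 31.7 CPM). Txnip was highest in blood neutrophils (1367 ± 513 CPM), heart macrophages (643 ± 88.6 CPM) and heart neutrophils (494 ± 127 CPM). The place of heart neutrophils depends on the scaling, since they held 343 ± 80.1 in CPM of the plain total. On that scale blood classical monocytes held 385 ± 94.9, blood NK cells 361 ± 48.0 and blood B cells 361 ± 56.9. The 3 lowest Txnip groups in TMM-scaled levels, heart dendritic cells (113 ± 6.82 CPM), heart classical monocytes (84.7 ± 19.0 CPM) and heart nonclassical monocytes (71.0 ± 17.0 CPM), overlapped their neighbours among the 3 and lay below the other 10. Heart macrophages thus paired a high Txnip with a low Btg1 among the 13 groups of each gene.

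S1pr1 was narrower. Among the 13 groups it was highest in blood B cells, with 174 and 182 CPM in stroke replicates 1 and 2 and 170 and 227 CPM in control replicates 1 and 2, and next in heart B cells, with 97.8 and 105 CPM in the stroke replicates and 138 and 115 CPM in the control replicates. Heart macrophages held 44.9 and 43.8 CPM in the stroke replicates and 36.8 and 50.6 CPM in the control replicates, and blood NK cells averaged 33.9 ± 6.13 CPM. These B cell and macrophage levels did not overlap each other. Over the 4 mice, S1pr1 counted 3 UMIs in heart nonclassical monocytes, 4 in heart classical monocytes, 8 in heart neutrophils and 3 in heart dendritic cells, and 4, 2, 1 and 0 UMIs in the same classes of the blood. No UMI was found in 246 blood dendritic cells. These classes are near the limit that the depth can show. Endothelial-like barcodes of the heart, in which S1PR1 is known to be abundant, held 569 and 646 CPM of the plain total in stroke replicates 1 and 2 and 671 CPM in control replicate 2, from 62, 23 and 57 barcodes. T cell-like barcodes of the blood, too few in each mouse to form a group, held 195 to 246 CPM of the plain total in 3 mice, from 72 barcodes of cluster 16.

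**Figure D1:**
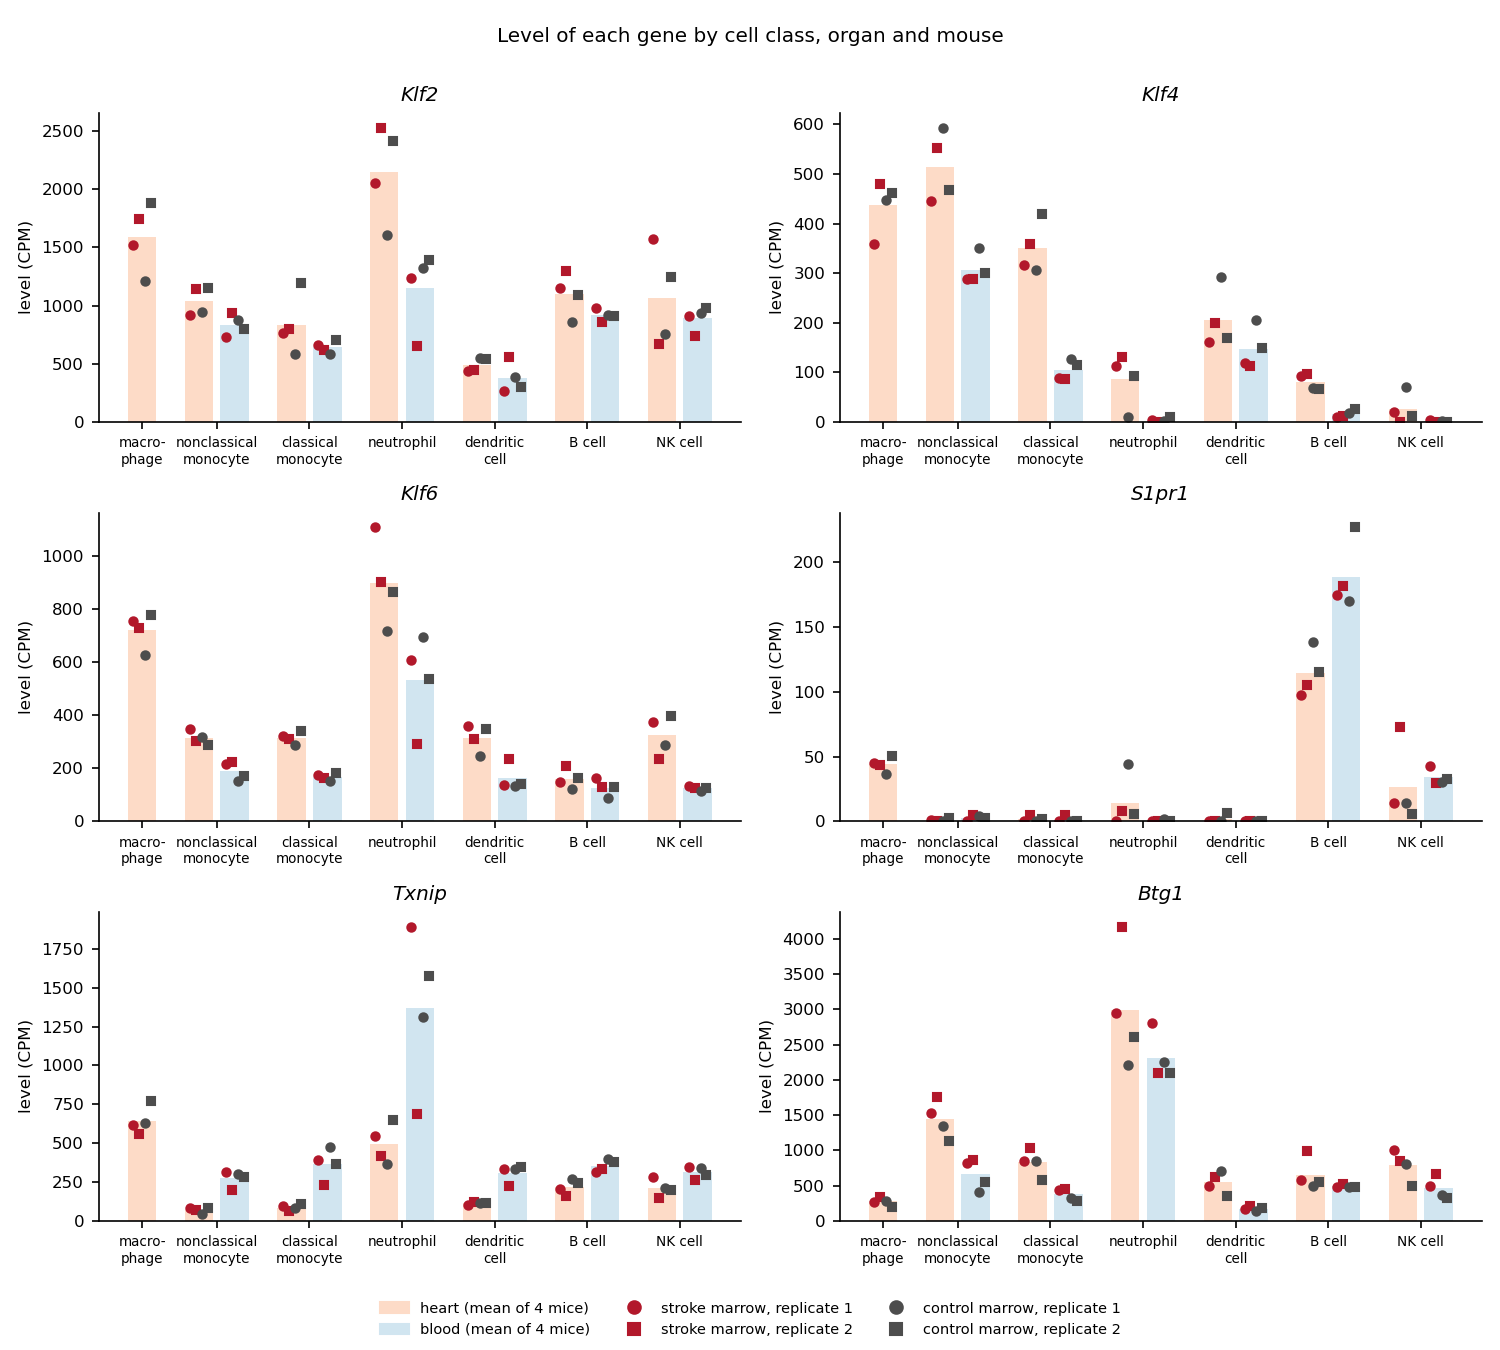
Level of each of the 6 genes, in CPM, in 13 groups of cells. Bars give the mean of 4 mice in heart and blood classes and points the single mice; Txnip bars are lower in heart than in blood in the 6 classes found in both organs, and S1pr1 is seen mainly in B cells, macrophages and NK cells among these groups.

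The 6 genes did not share a direction between the organs. Txnip was lower in heart than in blood cells in all 6 classes and in 4 of 4 mice of each, and S1pr1 was lower in heart B cells. Klf2, Klf4, Klf6 and Btg1 were on average higher in heart cells in every one of the 6 classes, the direction opposite to that of Txnip. Over all genes tested, the share that was lower in heart in 4 of 4 mice was 12.3% in nonclassical monocytes, 20.3% in classical monocytes, 15.2% in neutrophils, 11.1% in dendritic cells, 14.3% in B cells and 16.5% in NK cells. The share that was higher in 4 of 4 mice was 20.5%, 15.3%, 16.9%, 13.2%, 15.1% and 9.48% in the same order of classes. Nothing is read from those shares, because the genes were proposed with organ levels known.

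Txnip differed most in monocytes. In heart nonclassical monocytes it stood at 82.9 and 71.2 CPM in stroke replicates 1 and 2 and 47.0 and 83.1 CPM in control replicates 1 and 2, against 317 and 199 CPM (stroke) and 304 and 281 CPM (control) in blood nonclassical monocytes. In heart classical monocytes it stood at 92.8 and 60.8 CPM (stroke) and 79.9 and 105 CPM (control), against 392 and 234 CPM (stroke) and 473 and 367 CPM (control) in the blood. Every heart value lay below every blood value in both classes. The mean difference, heart minus blood on the log2(CPM + 1) scale, was -1.95 ± 0.51 in nonclassical and -2.08 ± 0.33 in classical monocytes (SD over 4 mice), which is 3.87-fold and 4.24-fold more in blood. Among all genes tested, Txnip ranked 3 of 5376 and 4 of 6098 from the lowest fitted log2 ratio. It ranked 35 of 3936 in neutrophils, 22 of 5696 in dendritic cells, 317 of 6821 in B cells and 261 of 3693 in NK cells. Nothing is read from these ranks, because the genes were proposed with organ levels known.

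In heart neutrophils Txnip stood at 547 and 419.7 CPM (stroke) and 363 and 646 CPM (control), against 1894 and 685 CPM (stroke) and 1314 and 1576 CPM (control) in blood neutrophils. Stroke replicate 2 had the lowest blood value, from 46 barcodes. In heart dendritic cells it stood at 103 and 118 CPM (stroke) and 117 and 116 CPM (control), against 331 and 227 CPM (stroke) and 331 and 347 CPM (control) in the blood. Both classes were separated without overlap, with mean log2 differences of -1.41 ± 0.53 and -1.419 ± 0.33. B cells and NK cells showed smaller differences, -0.71 ± 0.22 and -0.60 ± 0.23, and in NK cells stroke replicate 1 of the heart (281 CPM) lay above stroke replicate 2 of the blood (264 CPM). Leaving out any 1 mouse gave -2.09 to -1.71 in nonclassical monocytes, -2.14 to -1.93 in classical monocytes, -1.59 to -1.26 in neutrophils and -1.57 to -1.34 in dendritic cells.

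Most heart monocytes fell into clusters of their own (cluster 8 for nonclassical with 550 heart barcodes, cluster 12 for classical with 291), whereas blood monocytes filled clusters 6 and 2, so class and organ were partly tied. Neutrophils were split almost wholly by organ, since cluster 1 held 0.65% heart barcodes and cluster 9 held 99.56%. Their organ differences are therefore mostly differences between clusters. Cluster 6 held nonclassical monocytes of both organs, 158 from heart and 479 from blood. Within it Txnip stood at 119 and 101 CPM (stroke) and 97.3 and 132 CPM (control) in heart barcodes, against 364 and 231 CPM (stroke) and 340.0 and 325 CPM (control) in blood barcodes, in CPM of the plain total. The difference was thus present between organs inside 1 cluster. Cluster 2, the blood classical monocytes, held 1071 barcodes, of which 2.8% were from heart. Only control replicate 2 gave enough of these heart barcodes to be read. Its 12 heart barcodes had 368 CPM of Txnip, close to the 388 CPM of the blood barcodes of the same mouse and cluster.

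Klf4 was higher in heart than in blood in 4 of 4 mice of 5 classes. In classical monocytes it stood at 316 and 358 CPM (stroke) and 306 and 419 CPM (control) in the heart, against 89.4 and 86.4 CPM (stroke) and 126 and 116 CPM (control) in blood. The organs did not overlap, and the mean log2 difference was 1.74 ± 0.33. Nonclassical monocytes and dendritic cells differed by 0.74 ± 0.15 and 0.48 ± 0.26. In B cells Klf4 stood at 92.0 and 95.9 CPM (stroke) and 67.9 and 66.0 CPM (control) in the heart, against 9.83 and 12.6 CPM (stroke) and 17.6 and 25.6 CPM (control) in blood, a log2 difference of 2.29 ± 0.82. A Klf4 UMI was found in 17.5% to 24.7% of heart B cells and 4.62% to 7.50% of blood B cells, and in 0% to 1.40% of blood neutrophils, where the gene was nearly absent. Median UMIs per barcode were 5037 to 6055.5 in heart B cells, 4115 to 5747.5 in blood B cells and 1811 to 1959 in blood neutrophils. With each barcode thinned to 1000 UMIs, which left out 0 to 4 barcodes per mouse in heart B cells and 1 to 24 in blood B cells, the shares were 5.11% to 6.94% in heart B cells, 0.870% to 3.12% in blood B cells and 0% to 0.490% in blood neutrophils. The heart B cells stayed above both. In heart neutrophils 82 Klf4 UMIs were counted in 463 barcodes, against 6 UMIs in 1075 barcodes of blood neutrophils, so the size of that ratio rests on few counts.

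Macrophage markers were measured beside Klf4. The summed level of 10 macrophage markers was 183 to 265 CPM in heart B cells, against 162 to 1182 CPM in blood B cells, with Fcgr1 at 0 in the heart and none at 0 in the blood. It was 839 to 1162 CPM in heart neutrophils, against 402 to 506 CPM in blood neutrophils, with none at 0. The C1q genes of heart B cells reached 0.116% to 0.414% of their level in heart macrophages, and Klf4 there reached 12.9% to 23.2%. In heart neutrophils the C1q genes reached 0.733% to 1.74% and Klf4 1.57% to 21.0%. In heart NK cells control replicate 1 stood apart with 2154 CPM of macrophage markers, against 68.4 to 232 CPM in the other 3 mice, and it also held 10 of the 16 Klf4 UMIs of that class. The part of these markers in the Klf4 results was not tested.

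Klf6 was higher in heart in 4 of 4 mice of 5 classes, by 0.34 ± 0.34 (B cells, 3 of 4 mice) to 1.35 ± 0.32 (NK cells) on the log2 scale. In classical monocytes it stood at 321 and 309 CPM (stroke) and 289 and 341 CPM (control) in the heart, against 176 and 163 CPM (stroke) and 153 and 183 CPM (control) in blood, without overlap. Btg1 was likewise higher in 4 of 4 mice of 5 classes. In nonclassical monocytes it stood at 1534 and 1752 CPM (stroke) and 1352 and 1128 CPM (control) in the heart, against 819.6 and 862 CPM (stroke) and 404 and 553 CPM (control) in blood. The 2 organs did not overlap, and the mean log2 difference was 1.17 ± 0.38. It was 1.61 ± 0.57 in dendritic cells, 1.13 ± 0.19 in classical monocytes, 0.79 ± 0.36 in NK cells and 0.35 ± 0.38 in B cells. In neutrophils it was 0.34 ± 0.46, higher in 3 of 4 mice, and turned to -0.84 when organ was read from the ratio of the hashtags and to -0.35 at a finer clustering.

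Klf2 showed smaller differences. Its mean log2 difference was 0.31 ± 0.18 in nonclassical monocytes, 0.34 ± 0.32 in classical monocytes and 0.94 ± 0.72 in neutrophils, higher in heart in 4 of 4 mice of each. In dendritic cells, B cells and NK cells it was 0.43 ± 0.53, 0.25 ± 0.29 and 0.17 ± 0.50, within the spread over mice, and the last ranged from -0.04 to 0.33 as single mice were left out. S1pr1 in B cells, given above, differed by -0.72 ± 0.29 and was lower in heart in 4 of 4 mice. In NK cells heart S1pr1 rested on 14 UMIs in all, and its levels of 14.3 and 72.7 CPM (stroke) and 14.1 and 5.91 CPM (control) overlapped those of blood, 42.8 and 29.3 CPM (stroke) and 30.5 and 32.7 CPM (control).

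**Figure D2:**
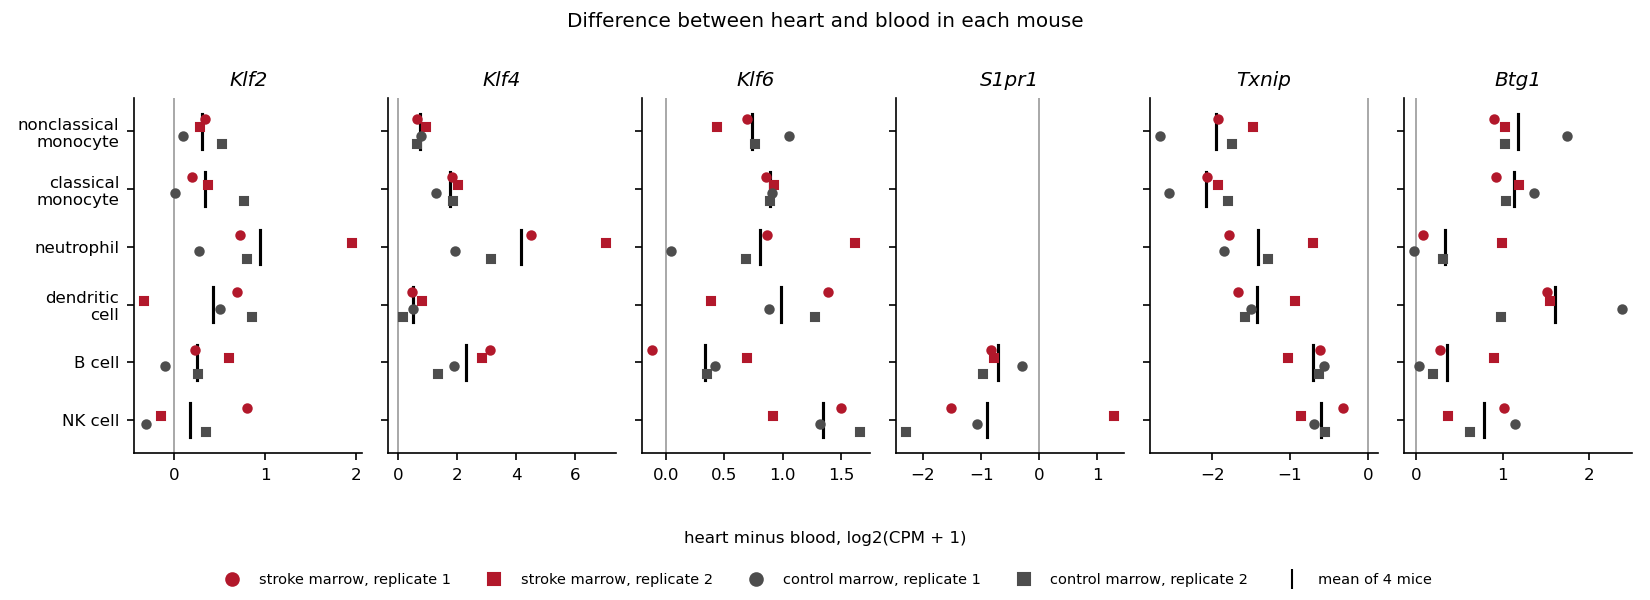
Heart minus blood level of each gene on the log2(CPM + 1) scale, by cell class. Points are single mice and the tick is the mean of 4 mice; all Txnip points lie left of 0, and most points of Klf4, Klf6 and Btg1 lie right of it.

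Genes related to the 6 were read from 9 lists, with edgeR's quasi-likelihood test of heart over blood, the mouse as a block and Benjamini-Hochberg adjustment over all genes of the fit. At an adjusted p below 0.05 this called 17.0% of genes in nonclassical monocytes, 17.7% in classical monocytes, 25.5% in neutrophils, 6.27% in dendritic cells, 9.19% in B cells and 6.44% in NK cells. The list with the highest median in both monocyte classes was that of the immediate early and dissociation genes, transcripts that rise within minutes of stimulation or tissue digestion. Of those tested, 17 of 17 rose in heart nonclassical and classical monocytes, 15 of 17 in neutrophils, 14 of 17 in dendritic cells, 13 of 16 in B cells and 7 of 10 in NK cells, and none fell. Their median log2 ratio was 3.28 in nonclassical monocytes, where that of all genes was -0.02, and 1.33 in NK cells, where that of all genes was -0.01. Dusp1, a phosphatase that turns off MAP kinases, rose by 4.44 ± 0.11 (log2 ratio ± SE here and below) and Junb, an AP-1 subunit, by 3.28 ± 0.09 in nonclassical monocytes.

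The summed level of that list was 12339 to 14228 CPM in heart against 2454 to 3001 CPM in blood nonclassical monocytes, and 16150.5 to 16828 CPM against 2710 to 2941 CPM in classical monocytes. It was 20954 to 23208 CPM against 4783 to 6076 CPM in neutrophils, 11863 to 14191 CPM against 2368 to 3530.4 CPM in dendritic cells, 4389 to 5713 CPM against 2185 to 2849 CPM in B cells and 3818 to 5795 CPM against 1985 to 2254 CPM in NK cells. Heart and blood did not overlap in any class. The list thus stood higher in heart in every class. Its part in the organ differences of the 6 genes was not tested.

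Among the thioredoxin, arrestin-domain and glucose uptake genes, the relatives of Txnip went both ways. In nonclassical monocytes 2 of 10 rose and 3 fell. Txnrd1, the thioredoxin reductase, rose by 1.53 ± 0.15, and Ddit4, an inhibitor of mTORC1, fell by 1.36 ± 0.18, with Arrdc3, an arrestin-domain relative of Txnip, at -0.65 ± 0.18 and Sesn1 at -0.74 ± 0.25 (highest adjusted p of the 4, 0.024). In classical monocytes 2 of 12 rose, Txnrd1 by 1.75 ± 0.16 and the glucose transporter Slc2a1 by 2.28 ± 0.24 (adjusted p 1.7e-11 and 1.0e-09), and none fell. In neutrophils Txnrd1 rose by 2.52 ± 0.30, while Arrdc3 fell by 1.15 ± 0.23 and Txn1, thioredoxin itself, by 0.30 ± 0.10, of 7 tested. In dendritic cells Txnrd1 rose by 1.81 ± 0.26 and Ddit4 fell by 1.75 ± 0.30, of 12. The list held 1 call each in B cells (Sesn1, -1.08 ± 0.15, of 12) and NK cells (Mlxip, which encodes MondoA, 0.92 ± 0.26, of 7).

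Of the quiescence and BTG/Tob genes, 3 of 14 rose in nonclassical monocytes and 5 of 16 in classical monocytes, with 1 fall in each. Btg2, the closest relative of Btg1, rose in all 6 classes, by 2.38 ± 0.09 in nonclassical monocytes, 2.78 ± 0.09 in classical monocytes, 2.52 ± 0.10 in neutrophils, 2.85 ± 0.19 in dendritic cells, 0.72 ± 0.12 in B cells and 1.419 ± 0.15 in NK cells (highest adjusted p 0.00073). Cdkn1a, an inhibitor of cyclin-dependent kinases, rose by 3.13 ± 0.14 and 3.71 ± 0.12 in the monocytes, 4.14 ± 0.35 in neutrophils and 3.50 ± 0.24 in dendritic cells. Tsc22d3, a glucocorticoid-induced leucine zipper gene, fell by 0.30 ± 0.11 in nonclassical monocytes, 0.40 ± 0.12 in classical monocytes and 0.51 ± 0.12 in B cells, and rose by 1.11 ± 0.20 in NK cells. The counts in the other classes were 2 higher and 1 lower of 12 (neutrophils), 3 and 0 of 15 (dendritic cells), 3 and 2 of 16 (B cells) and 3 and 0 of 11 (NK cells). Of the glucocorticoid response genes, 5 of 10 rose and 2 fell in nonclassical monocytes, and 6 of 12 rose and 1 fell in classical monocytes; Dusp1, Ddit4, Tsc22d3 and Klf9 stand in this list and in another. Of the 0 to 4 cell cycle genes tested per class, Pcna rose in classical monocytes (0.83 ± 0.24) and dendritic cells (1.20 ± 0.28), and no other was called.

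Of the other Krüppel-like genes, 3 of 5 rose in nonclassical monocytes, Klf9 by 0.95 ± 0.20, Klf10 by 0.57 ± 0.15 and Klf3 by 0.27 ± 0.09. Klf9 also rose in classical monocytes (1.41 ± 0.19, of 5) and dendritic cells (2.38 ± 0.53, of 5), Klf3 fell by 1.08 ± 0.15 in B cells, of 5, and none of 4 was called in neutrophils or NK cells. A further list was drawn up as genes upstream of Klf2 and Klf4. Of these, Nr4a1 rose in all 6 classes, by 1.89 ± 0.09 (nonclassical monocytes) to 4.95 ± 0.23 (neutrophils). Nr4a1 encodes an orphan nuclear receptor needed for nonclassical monocytes. Whether it lies upstream of Klf2 or Klf4 in these cells was not tested. Map3k3, a kinase that activates the MEK5 and ERK5 pathway, fell by 0.61 ± 0.12, 0.55 ± 0.15 and 1.05 ± 0.17 in nonclassical monocytes, classical monocytes and neutrophils. Mef2d, a transcription factor target of that pathway, rose by 0.97 ± 0.20 in classical monocytes, 1.30 ± 0.24 in neutrophils and 0.91 ± 0.24 in NK cells. Of this list 3 of 12 rose and 3 fell in nonclassical monocytes, 3 of 12 rose and 1 fell in classical monocytes, and 2 of 9 rose and 3 fell in neutrophils.

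Of the sphingosine-1-phosphate genes besides S1pr1, Arhgef1, an exchange factor that acts downstream of G12 and G13 proteins, fell in heart cells of 4 classes, by 0.50 ± 0.11 in nonclassical monocytes, 0.62 ± 0.15 in classical monocytes, 1.00 ± 0.19 in neutrophils and 0.55 ± 0.12 in B cells (highest adjusted p 0.0054). Sgpp1, a phosphatase of the lipid, fell by 1.11 ± 0.24 in nonclassical monocytes. In B cells Gna13 rose by 0.91 ± 0.17 and Rac2 by 0.41 ± 0.11, of 9 tested. No other gene of this list was called, among 7 tested in nonclassical monocytes, 6 in classical monocytes, 5 in neutrophils, 7 in dendritic cells and 6 in NK cells. Of the homing and adhesion genes, Cd44, a receptor for hyaluronan, rose by 0.88 ± 0.07 in nonclassical monocytes, 1.40 ± 0.08 in classical monocytes and 0.53 ± 0.14 in B cells. Cx3cr1, the fractalkine receptor of patrolling monocytes, fell by 0.33 ± 0.09 in nonclassical monocytes, and Ccr2, a chemokine receptor that serves recruitment of classical monocytes, fell by 0.49 ± 0.08 in that class. In nonclassical monocytes 3 of 12 rose and 2 fell. In neutrophils Itgb1 rose by 1.33 ± 0.26 and Cx3cr1 by 1.77 ± 0.35, while Selplg, the ligand of P-selectin, fell by 0.62 ± 0.12, of 11 tested. In dendritic cells Ccr7, the receptor for homing to lymph nodes, rose by 2.77 ± 0.54 and the integrin gene Itgal fell by 1.09 ± 0.28, of 13, and none of 11 was called in NK cells. The median log2 ratio of the lists in nonclassical monocytes was 0.27 for other Krüppel-like genes, -0.04 for sphingosine-1-phosphate genes, -0.06 for homing genes, -0.07 for thioredoxin and arrestin genes, 0.12 for quiescence genes, -0.05 for the genes upstream of Klf2 and Klf4 and 0.41 for glucocorticoid response genes, beside -0.02 for all genes.

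The donor comparison asked whether marrow from stroke donors left the genes at other levels than control marrow. None of the 6 passed edgeR's test in any of the 13 groups. In 65 tests 9 had an unadjusted p below 0.05, and the lowest adjusted p was 0.668. Unadjusted p lay below 0.05 for 396 of 10521 genes in heart macrophages, 266 of 6045 in nonclassical and 292 of 5696 in classical monocytes. Heart neutrophils held 119 of 3589, dendritic cells 445 of 4878, B cells 396 of 7162 and NK cells 79 of 2641. In blood it was 207 of 5551 in nonclassical and 344 of 8768 in classical monocytes, and 99 of 4798 in neutrophils. Blood dendritic cells held 123 of 5999, B cells 567 of 6354 and NK cells 230 of 5506. Nothing is read from the 9. DESeq2 called none of the 6 either. Over all genes the share called was 0% in heart macrophages, nonclassical monocytes, neutrophils and NK cells and in blood nonclassical monocytes, dendritic cells and NK cells, 0.0351% in heart classical monocytes, 0.185% in heart dendritic cells, 0.126% in heart B cells, 0.0114% in blood classical monocytes, 0.0208% in blood neutrophils and 0.724% in blood B cells. Nor was any called in all heart cells or all blood cells together, where 0.0239% and 0% of genes were called.

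Of the 6 genes, Btg1 had the most uniform direction. Its log2 ratio was positive in 13 of 13 groups, between 0.04 and 0.81, and in 7 of the 13 the lower stroke mouse exceeded the higher control mouse. In blood nonclassical monocytes it stood at 819.6 and 862 CPM in stroke replicates 1 and 2, against 404 and 553 CPM in control replicates 1 and 2. The log2 ratio was 0.81 ± 0.17, with an unadjusted p of 0.00025 and an adjusted p of 0.706. In blood NK cells it stood at 498 and 660.3 CPM (stroke), against 366 and 323 CPM (control), with 0.71 ± 0.17 (adjusted p 1.00). In blood classical monocytes it stood at 444 and 455 CPM (stroke), against 329 and 284 CPM (control), with 0.58 ± 0.15 (adjusted p 1.00). In heart B cells it stood at 578 and 986 CPM (stroke), against 499 and 554 CPM (control), with 0.59 ± 0.21 (adjusted p 0.668), and in heart nonclassical monocytes at 1534 and 1752 CPM (stroke), against 1352 and 1128 CPM (control), with 0.43 ± 0.16 (adjusted p 1.00). In each of these 5 groups the donor groups did not overlap, and the difference failed the adjustment. Over all genes, the share in which both stroke mice exceeded both controls was 16.1% in heart macrophages, 15.2% in heart nonclassical monocytes, 18.7% in heart classical monocytes, 25.6% in heart neutrophils, 17.6% in heart dendritic cells, 15.3% in heart B cells and 16.7% in heart NK cells. In the blood it was 15.6% in nonclassical monocytes, 14.1% in classical monocytes, 6.07% in neutrophils, 14.1% in dendritic cells, 19.8% in B cells and 17.9% in NK cells. The share of all genes with a positive log2 ratio in all 13 groups was not computed. Nothing is therefore read from the 13 of 13 of Btg1.

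The sums of the 6 erythroid markers are given for replicates 1 and 2 in turn. In blood nonclassical monocytes they were 17.1 and 43.1 CPM (stroke) against 9.51 and 5.60 CPM (control). Blood classical monocytes held 1702 and 28.1 CPM (stroke) against 5.19 and 10.4 CPM (control). Heart nonclassical monocytes held 14.6 and 37.4 CPM (stroke) against 7.55 and 6.88 CPM (control). In blood NK cells the sums were 6.35 and 37.7 CPM (stroke) against 5.45 and 12.6 CPM (control), with overlap. In heart B cells they were 0 and 14.01 CPM (stroke) against 5.64 and 5.08 CPM (control), also with overlap. Their part in the Btg1 values was not tested.

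The 13 groups are not independent, because each mouse gave 1 library from which all its groups came. In blood B cells, the group in which stroke replicate 2 gave 976 of its barcodes, Btg1 stood at 479 and 527 CPM (stroke), against 486 and 483 CPM (control), an overlap with a log2 ratio of 0.04 ± 0.18. Single mice decided some calls. Without control replicate 2, Btg1 passed in blood nonclassical monocytes (1.07, adjusted p 3.6e-05), and without stroke replicate 1 it passed there (0.87, adjusted p 0.044) and in heart B cells (0.90, adjusted p 0.038). Without stroke replicate 2 its log2 ratio was -0.07 in heart dendritic cells and -0.02 in blood B cells, and it was positive in 11 of 13 groups. Without control replicate 1, the mouse with the Y-linked transcript, it was positive in 13 of 13. Without control replicate 2 it was -0.32 in heart dendritic cells and positive in 12 of 13. With no filter on low counts Btg1 passed in blood nonclassical monocytes (0.80, adjusted p 0.0024) and blood NK cells (0.73, adjusted p 0.011).

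The other 5 genes had no such direction. The log2 ratio of Klf2 was positive in 6 groups and negative in 7, that of Klf4 positive in 2 of 9 tested, that of Klf6 positive in 10 of 13, that of S1pr1 positive in 1 of 4 and that of Txnip positive in 3 of 13. Their estimates lay between -0.62 (Klf4) and 0.92 (Klf4). Txnip was lower in heart B cells of stroke marrow recipients, 204 and 163 CPM against 271 and 244 CPM in control recipients, with -0.50 ± 0.21 and an adjusted p of 0.835. Klf4 was lower in blood classical monocytes, 89.4 and 86.4 CPM (stroke) against 126 and 116 CPM (control), with -0.43 ± 0.16 and an adjusted p of 1.00. Neither passed the test. Without stroke replicate 1, Klf4 (-2.04, adjusted p 8.5e-06) and S1pr1 (2.32, adjusted p 1.2e-06) passed over all blood cells, where the stroke group was then the mouse with 75.1% B cells alone. Without control replicate 2, Klf4 passed in heart neutrophils (3.42, adjusted p 0.013), with 1 Klf4 UMI in the control mouse that was left. With 2 mice in a group, differences of this size could not be separated from the spread between mice.

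**Figure D3:**
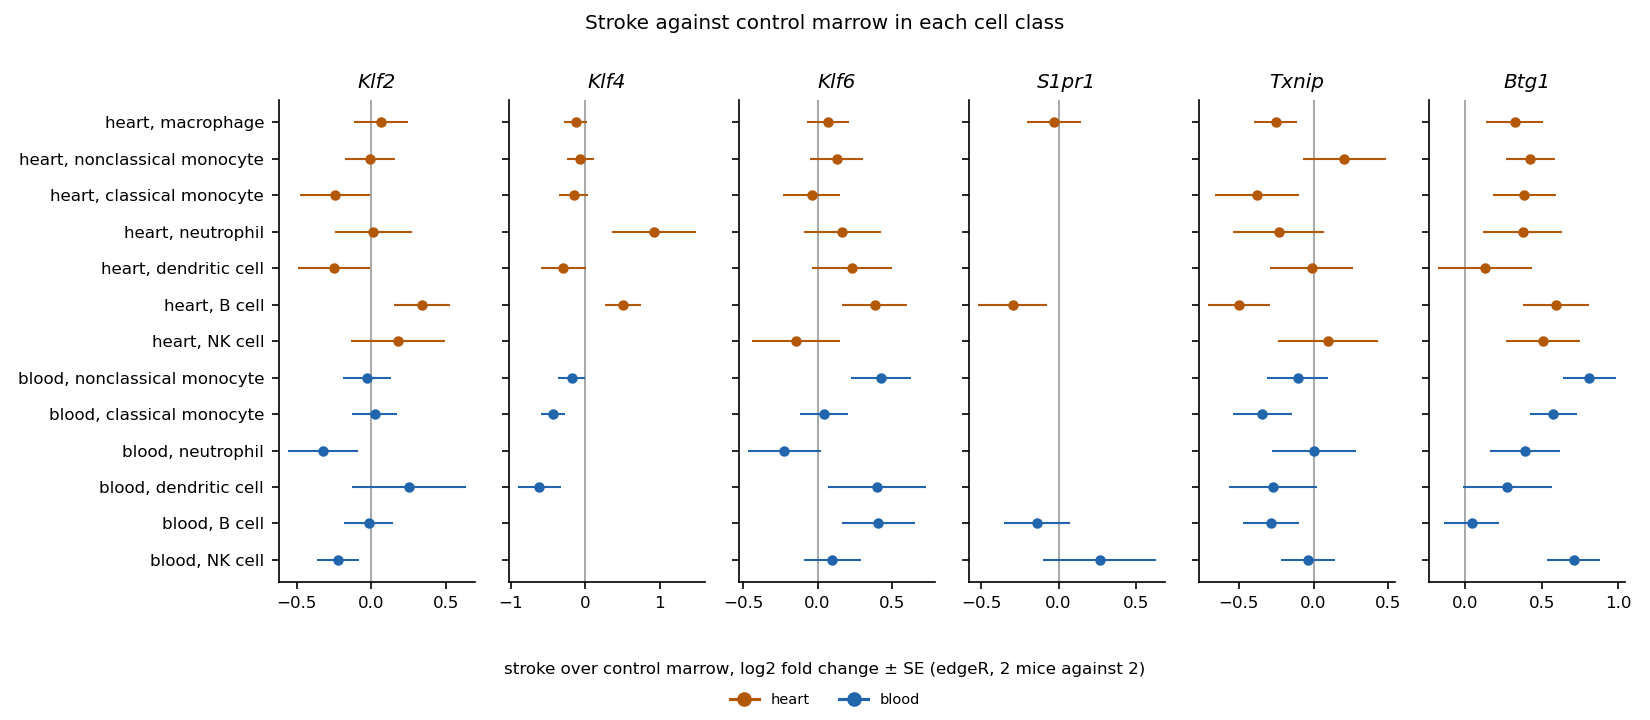
Stroke over control log2 ratio of each gene from edgeR, by organ and cell class, with its SE as a bar. Each panel has its own horizontal scale; the Btg1 estimates lie right of 0 in all 13 groups, and no estimate in any panel passed the adjusted threshold.

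Whether the donor effect differed between the organs was tested as an interaction within mice. In 31 tests of the 6 genes in 6 classes none passed, 3 had an unadjusted p below 0.05 and the lowest adjusted p was 0.656. Over all genes, 281 of 6086 in nonclassical monocytes, 277 of 6766 in classical monocytes and 146 of 4713 in neutrophils had such an unadjusted p. In dendritic cells it was 344 of 6664, in B cells 481 of 7660 and in NK cells 185 of 4456. Nothing is read from the 3. DESeq2 again called none. Over all genes the share called was 0% in both monocyte classes and in NK cells, 0.0849% in neutrophils, 0.0300% in dendritic cells and 0.0131% in B cells. The 3 were Klf4 in B cells (1.29 ± 0.46, adjusted p 0.656), Btg1 in B cells (0.56 ± 0.22, adjusted p 0.690) and Btg1 in nonclassical monocytes (-0.41 ± 0.15, adjusted p 0.999). Without stroke replicate 1, 2 of the genes passed in B cells, with Btg1 at 0.81 (adjusted p 0.0031), and Klf2 at 0.55 (adjusted p 0.037). Without control replicate 2 Btg1 passed in nonclassical monocytes (-0.77, adjusted p 0.028).

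Heart macrophages were then split by a rule that did not use the 6 genes, although the genes were proposed with earlier results of these data known and the tests below are not independent of that choice. Barcodes with at least 1 UMI of Lyve1, Timd4 or Folr2, markers of resident-type macrophages, numbered 1475, and the others 661. Median UMIs per barcode were 5188 and 5038.5 in resident-type macrophages of stroke replicates 1 and 2 and 5736.5 and 4881 in those of control replicates 1 and 2, against 4156.5 and 3636.5 (stroke) and 5001 and 3704 (control) in the other macrophages, so the rule also favours deeper barcodes. All 6 genes passed edgeR's test with the mouse as a block, while 17.1% of all genes did (7.60% higher and 9.54% lower). Because of how the 6 genes were chosen, nothing is read from their number beside that share. Resident-type macrophages held more S1pr1, Klf4, Klf2 and Txnip and less Klf6 and Btg1.

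S1pr1 stood at 51.9 and 53.2 CPM (stroke) and 51.3 and 61.7 CPM (control) in resident-type macrophages, against 22.9 and 14.1 CPM (stroke) and 16.5 and 14.2 CPM (control) in the others. The sides did not overlap, and the log2 ratio was 1.65 ± 0.21 (adjusted p 2.2e-07), higher in 4 of 4 mice. Endothelial cells express S1pr1, and the summed level of 9 endothelial markers was 63.1 to 70.6 CPM in resident-type macrophages, against 65.6 to 93.3 CPM in the others, with none of the 9 at 0 on either side. Cardiomyocyte markers summed to 82.3 to 136 CPM, against 154 to 239.6 CPM. Erythroid markers summed to 4.02 to 16.8 CPM, against 6862 CPM in the other macrophages of stroke replicate 2 and 2.05 to 8.72 CPM in those of the other 3 mice. The part of these markers in the split was not tested. The other macrophages had 49 S1pr1 UMIs over the 4 mice.

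Klf2 stood at 1663 and 1948 CPM (stroke) and 1425 and 2056 CPM (control) in resident-type macrophages, against 1113 and 1066 CPM (stroke) and 966 and 1304 CPM (control) in the others (log2 ratio 0.67 ± 0.06, adjusted p 6.0e-10). Klf4 stood at 398 and 558 CPM (stroke) and 544 and 506 CPM (control), against 236 and 228 CPM (stroke) and 326 and 313 CPM (control), with 0.87 ± 0.09 (adjusted p 3.6e-09). Neither gene overlapped between the sides. Txnip stood at 656 and 589.9 CPM (stroke) and 802 and 809.7 CPM (control), against 507 and 456 CPM (stroke) and 394 and 635 CPM (control), with 0.50 ± 0.08 (adjusted p 2.8e-05). Its sides overlapped over mice, although it was higher in 4 of 4 mice. Klf6 stood at 731 and 688 CPM (stroke) and 564 and 695 CPM (control), against 855 and 829.8 CPM (stroke) and 772 and 1049 CPM (control), with -0.38 ± 0.07 (adjusted p 1.0e-04). Btg1 stood at 233 and 324 CPM (stroke) and 243 and 181 CPM (control), against 392 and 388 CPM (stroke) and 374 and 269 CPM (control), with -0.55 ± 0.09 (adjusted p 1.1e-05). Klf6 lay lower in 4 of 4 mice with no overlap, and Btg1 lay lower in 4 of 4 mice with overlap.

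The immediate early and dissociation genes were lower in resident-type macrophages as well, with 11 of 20 called lower and none higher. Their sum was 14641 to 16871 CPM, against 18155 to 19886 CPM in the other macrophages, and its part in the split of Klf6 and Btg1 was not tested. Of the 11 homing genes tested 7 were lower and 2 higher, with Cx3cr1 at -0.94 ± 0.08, Cd44 at -0.90 ± 0.08 and the integrin gene Itgam at 0.33 ± 0.09. Klf9 (1.00 ± 0.13), Sgpp1 (0.83 ± 0.13) and Tsc22d3 (0.41 ± 0.07) were higher, and Btg2 (-0.44 ± 0.07) and Nr4a1 (-0.74 ± 0.11) were lower, so Btg1, Btg2 and Nr4a1 stood on the lower side with Klf6. The median log2 ratio was -0.31 over the immediate early list and -0.66 over the homing list, beside -0.003 over all genes.

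**Figure D4:**
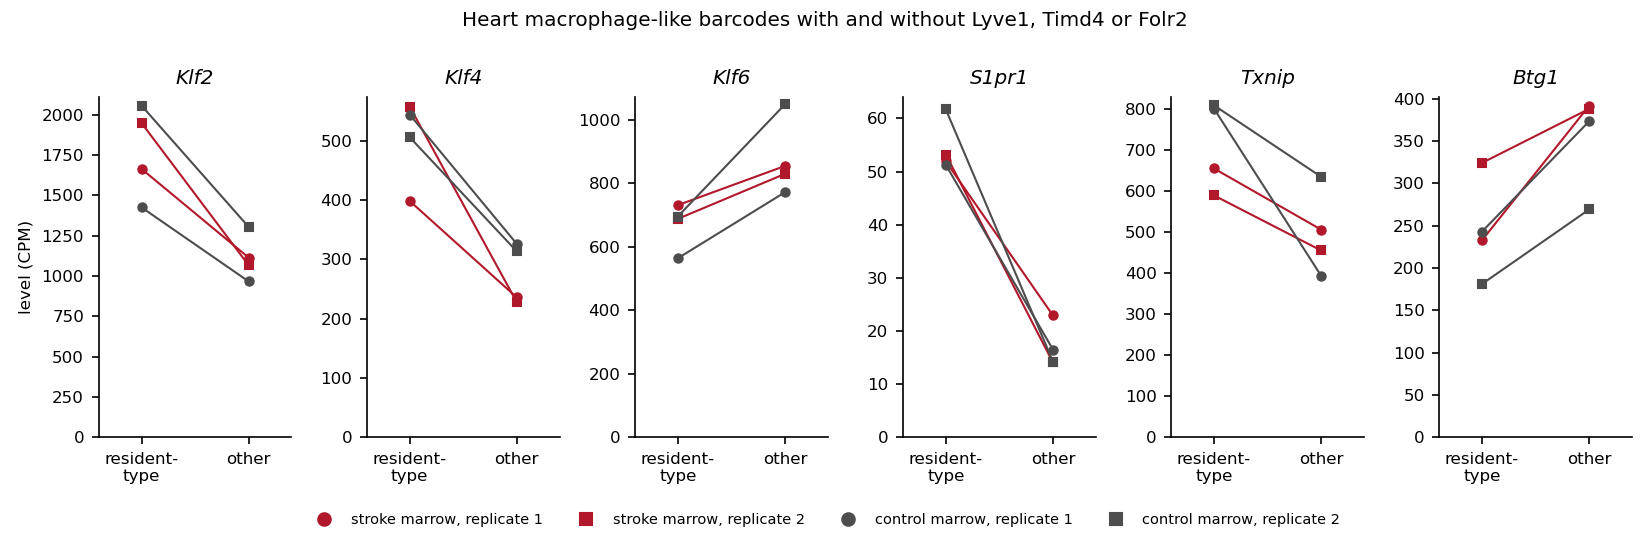
Level of each gene, in CPM, in heart macrophages with (left) and without (right) a UMI of Lyve1, Timd4 or Folr2. Each line joins the sides of 1 mouse; S1pr1, Klf4, Klf2 and Txnip lie higher on the left in all 4 mice, and Klf6 and Btg1 lie lower.

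Across the 13 group means the 6 genes followed each other only loosely. On the log2(CPM + 1) scale the highest Pearson r between any pair was 0.63 (Klf2 and Klf6), followed by 0.62 (Klf2 and Btg1), and the lowest was -0.50 (Klf4 and Txnip), with 0.45 for Klf2 and S1pr1. The points share libraries and depth, and these values are a description. Among 3448 genes with a mean of at least 50 CPM, those most like each gene over the 13 means were Cdk8, Polr2a and Gm15564 for Klf2 (r = 0.86, 0.85 and 0.85), Dusp3, Ext1 and Ywhag for Klf4 (0.94, 0.93 and 0.92), and Gm26532, Dclre1c and Tut7 for Klf6 (0.94, 0.90 and 0.90). For S1pr1 they were Glcci1, Cd55 and Akap8l (0.94, 0.89 and 0.89), for Txnip Il16, Zfp652 and Ulk2 (0.88, 0.86 and 0.85), and for Btg1 Cd53, Srgn and Tax1bp1 (0.93, 0.90 and 0.90).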

How the data were processed

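The authors deposited raw UMI counts for genes and hashtags by barcode, from Cell Ranger 7.1.0 and mm10 (per the submitters' processing notes, and per the file headers). Whether reads were subsampled is not stated in them. The genes and the lists were chosen with earlier results of these data known.

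Organ was called with HTODemux (Seurat 5.3.0, quantile 0.99), separately in each library: 954 barcodes carried both hashtags and 101 neither, and both kinds were left out. A minimum of 200 genes and a maximum of 10% mitochondrial UMIs left 10786 barcodes. Scrublet in scanpy 1.11.5, with 1 score threshold of 0.25 for all libraries, removed 278 barcodes (2.58%) as doublets; its automatic thresholds were uneven. Leiden clusters (resolution 1, 2000 variable genes without the 6 genes and sex-linked genes, 30 components, 20 neighbours) were named from marker lists by mean z-score of at least 1; the rule that haemoglobin and platelet lists counted only when leading was set after seeing the data. UMIs of a mouse, organ and class were added up where each mouse had at least 20 barcodes, and tested with edgeR 4.0.16 in R 4.3.3 (quasi-likelihood, TMM, filterByExpr, adjusted p below 0.05 over all genes; 2 reporter transgenes left out). The scripts were tested on simulated data. The SE is the log2 ratio divided by the root of F. All p-values are two-sided. Genes of the lists are named by a rule: of those past the threshold, up to 4 per list and comparison with the highest mean CPM. A gene of the homing list that the rule names is not reported here. Log2 differences of CPM used a pseudocount of 1. Coordinates are from GENCODE vM21 and promoters from RefSeq. Alternatives were DESeq2 1.42.0, no filter on low counts, plain CPM, organ from a hashtag ratio of at least 3 with at least 20 UMIs, automatic doublet thresholds, a minimum of 500 genes with a maximum of 5% mitochondrial UMIs, resolution 2, barcodes with at least 2 endothelial markers left out, the replicate block, and each mouse left out.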

Additional observations from a re-analysis of the deposited data

Results flagged for a closer look

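In B cells Klf4 stood higher with stroke marrow in the heart and lower in the blood. The heart difference did not pass edgeR's test (adjusted p 0.891), and in the blood Klf4 was below the filter on low counts and was not tested. Stroke minus control was 26.96 CPM in the heart (92.0 and 95.9 CPM in stroke marrow recipients, 67.9 and 66.0 CPM in control recipients) and -10.37 CPM in the blood (9.83 and 12.6 CPM in stroke marrow recipients, 17.6 and 25.6 CPM in control recipients). The difference itself did not pass edgeR's interaction test (1.29 ± 0.46, adjusted p 0.656). The blood values rest on 4 and 72 UMIs in stroke marrow recipients and 12 and 8 UMIs in control recipients, and at resolution 2 the interaction was -0.56. The macrophage markers of blood B cells summed to 360 and 162 CPM in stroke marrow recipients and 478 and 1182 CPM in control recipients, and the immediate early and dissociation genes of heart B cells to 5713 and 5242 CPM in stroke marrow recipients and 4389 and 4793 CPM in control recipients. Their part in this was not tested.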

How the results depend on the processing

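Mean organ differences moved by more than the spread over mice in these cases. With organ from the hashtag ratio, Btg1 in neutrophils was -0.84 (0.34 as reported), and Klf6 was 0.75 in B cells (0.34) and 0.81 in classical monocytes (0.90). With automatic doublet thresholds, Klf6 was 1.14 and Txnip -1.65 in classical monocytes (0.90 and -2.08), and Txnip -0.36 in NK cells (-0.60). The stricter cell filter gave Klf6 1.03 in classical monocytes. Resolution 2 gave Klf6 0.97 in classical monocytes, Btg1 -0.35 in neutrophils, Txnip -1.05 in dendritic cells (-1.419) and Klf4 3.25 in B cells (2.29), and turned the Klf4 interaction in B cells to -0.56. The cause was not tested. The split of heart macrophages kept its direction and its side of the threshold for all 6 genes under the 11 alternatives run.

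List genes higher in heart numbered 9 with DESeq2 in NK cells (14 as reported) and 40 with the hashtag ratio in neutrophils (24). List genes lower in heart numbered, with DESeq2, 5 in nonclassical monocytes (11), 2 in classical monocytes (5), 5 in neutrophils (9) and 1 in dendritic cells (2). With no filter they numbered 7 in nonclassical monocytes, 7 in dendritic cells and 3 in NK cells (0). With the hashtag ratio they numbered 30 in neutrophils, 12 in B cells (6) and 2 in NK cells. With automatic doublet thresholds they numbered 7 in nonclassical monocytes and 4 in NK cells, and at resolution 2 they numbered 21 in neutrophils and 5 in dendritic cells. With 1 mouse left out they ranged from 6 to 9 in nonclassical monocytes, 5 to 13 in neutrophils, 1 to 9 in dendritic cells and 0 to 1 in NK cells, and Klf6 in classical monocytes from 0.89 to 0.94.

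Where a group was left with 1 mouse, that mouse was assumed to vary like the others. Of the 6 genes, 1 was called with no filter in blood nonclassical monocytes and 1 in blood NK cells, Btg1 in both. With 1 mouse left out, 0 to 1 was called in blood nonclassical monocytes, heart B cells and heart neutrophils, 0 to 2 over all blood cells, 0 to 2 in the B cell interaction and 0 to 1 in the nonclassical monocyte interaction. Btg1 with 1 mouse left out ranged from -0.32 (without control replicate 2) to 0.70 in heart dendritic cells, with -0.07 without stroke replicate 2, and from -0.023 (without stroke replicate 2) to 0.12 in blood B cells.

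The sample titles give same-numbered mice a shared replicate number, and whether they were processed together is not known. The correlation of their deviations lay between -0.33 and 0.11 over 15 sets. With the replicate block 0 of the 6 genes were called and Btg1 was positive in 13 of 13 groups, while over all genes it called 4 in heart macrophages (0 without the block), 8 in heart nonclassical monocytes (0), 12 in heart classical monocytes (2), 12 in heart neutrophils (0), 4 in heart NK cells (0), 5 in blood classical monocytes (1), 10 in blood neutrophils (1), 1 in blood NK cells (0) and 4 in blood B cells (46).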
